A study of Mus musculus with 212 samples.

Results

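The Hox genes encode homeodomain transcription factors and lie in 4 clusters, HoxA to HoxD, in which the order of the genes along the chromosome follows the position along the body axis at which they act. The clusters described here hold 38 listed Hox genes, all of which matched a row of the deposited table by Ensembl ID, out of 47631 genes in that table. There are 10 each in HoxA and HoxB and 9 each in HoxC and HoxD. By position number, 11 are anterior (positions 1 to 4), 11 are central (5 to 8) and 16 are posterior (9 to 13). The family was chosen by the FPKM values of the AM and PM courses, in which members differed between genotypes, so the genotype values of those courses are given as a description with no test.

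In vertebrate embryos, Hox genes at the low-numbered end of a cluster are used from the hindbrain backwards, and those at the high-numbered end only in the trunk, tail and distal limbs. Adult skin fibroblasts keep a Hox profile that reflects the body site they come from, and Polycomb and Trithorax proteins maintain the silent and the active stretch of each cluster. Hox proteins bind DNA with TALE cofactors of the Pbx, Meis and Pknox families.

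The cells were skin fibroblasts cultured from C57BL/6 mice, either wild type (WT) or Bmal1-/-, which lack the circadian clock transcription factor BMAL1 (gene symbol Arntl). Confluent cultures of both genotypes received 100 nM dexamethasone for 15 min to set their clocks, then stood in the dark in medium buffered with HEPES, and harvesting began after 48 h. Each genotype has 5 time courses with 1 library per time point: AM and PM with 17 libraries each (time labels CT0 to CT48, every 3 h), and courses at 27, 32 and 37 °C with 24 each (CT0 to CT46, 1 library every 2 h). What AM and PM mean is not stated in the labels, nor at which body site the skin was taken, whether the 3 wells per time point were pooled, or how many cell preparations or animals each genotype stands for. Genotype therefore cannot be told apart from cell preparation here, nor a course's temperature from its culture, and p-values measure only the spread between libraries of a course.

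The pair of libraries labelled CT14 27C stood against their labels. In the library labelled WT, Hoxa9 was at 0.0828 FPKM, Hoxc10 at 0.0926 and Hoxb2 at 3.59, whereas the library labelled Bmal1-/- had Hoxa9 at 39.1, Hoxc10 at 43.9 and Hoxb2 at 0.130. Every value below leaves both out, which leaves 210 of 212 libraries, except the depth, which was estimated over all 212. FPKM are fragment counts corrected for the length of the transcript and the size of the library, so they can be compared between genes.

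The estimated depth was 9.96 to 32.1 M reads per library, with a median of 23.4 M. All 12 fibroblast markers had a median of at least 1 FPKM in both genotypes, with a summed level of 10308 to 22891 FPKM in WT and 12313 to 25731 in Bmal1-/-. Within this list Pdgfra (course medians 224.4 to 648.9 FPKM in WT and 103.2 to 193.7 in Bmal1-/-), Postn (1324 to 1999 and 267.6 to 1148) and Lum (43.8 to 103.8 and 4.06 to 69.4) had lower medians in Bmal1-/- in each pair of courses. S100a4 (256.6 to 1923 and 651.7 to 2835) and Dcn (1109 to 1959 and 1311 to 4467) had higher ones. A median of at least 1 FPKM was reached in WT by 2 of 10 keratinocyte, 2 of 7 macrophage and 2 of 7 endothelial markers, and in Bmal1-/- by 0, 1 and 0. Their summed levels were 1.05 to 6.35 FPKM in WT and 2.04 to 6.01 in Bmal1-/- (keratinocyte; Krt5, Krt14, Krt1 and Epcam at a median of 0), 4.09 to 41.4 and 1.17 to 41.6 (macrophage; Adgre1, Ptprc and Aif1 at 0) and 0.960 to 6.69 and 1.19 to 3.12 (endothelium; Tie1 and Cldn5 at 0). None of 5 Schwann cell markers (0.157 to 2.17 and 0.175 to 2.20 FPKM, Sox10 at 0) and none of 6 muscle markers (0 to 0.592 and 0 to 0.744 FPKM, Myod1 and Myog at 0) reached it. Summed melanocyte markers had medians of 21.04 FPKM in WT (5.16 to 32.3) and 3.74 in Bmal1-/- (1.66 to 6.68) with Tyrp1, Dct and Tyr at 0, and summed adipocyte markers 62.2 (21.8 to 125.0) and 153.7 (34.3 to 257.8). Of the 6 markers in either list, 2 melanocyte and 3 adipocyte ones had a median of at least 1 FPKM in each genotype, and Adipoq, Plin1 and Cidec were at 0 in WT. The part of these markers in the Hox values was not tested. Arntl transcript itself had course medians of 5.03 to 7.38 FPKM in WT and 5.98 to 7.91 in Bmal1-/-, and a gene-level value does not show which part of the gene was deleted.

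The promoters around the border in HoxA are shown first, because they flank the place in this cluster where the genotypes part: Hoxa5 had course medians of at least 1 FPKM in both genotypes, and Hoxa6, Hoxa7 and Hoxa9 in WT but in no Bmal1-/- course. Each sequence is the 250 bases before the gene's RefSeq start on GRCm38.p6, chromosome 6, minus strand, 5′ to 3′, at chr6:52204588-52204837 (Hoxa5), chr6:52208673-52208922 (Hoxa6), chr6:52218574-52218823 (Hoxa7) and chr6:52227371-52227620 (Hoxa9). Capitals mark CG dinucleotides, the sites of DNA methylation and the building blocks of CpG islands.
Hoxa5: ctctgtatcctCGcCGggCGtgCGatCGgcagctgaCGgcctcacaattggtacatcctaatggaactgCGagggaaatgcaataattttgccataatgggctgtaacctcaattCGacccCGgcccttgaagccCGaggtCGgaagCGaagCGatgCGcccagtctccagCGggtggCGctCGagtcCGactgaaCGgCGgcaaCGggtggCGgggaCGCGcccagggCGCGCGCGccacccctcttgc
Hoxa6: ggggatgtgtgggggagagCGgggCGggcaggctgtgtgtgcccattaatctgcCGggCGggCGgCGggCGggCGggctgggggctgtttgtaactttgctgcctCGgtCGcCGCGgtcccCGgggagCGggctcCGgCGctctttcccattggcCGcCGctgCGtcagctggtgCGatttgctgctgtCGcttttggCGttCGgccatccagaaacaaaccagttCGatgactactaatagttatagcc
Hoxa7: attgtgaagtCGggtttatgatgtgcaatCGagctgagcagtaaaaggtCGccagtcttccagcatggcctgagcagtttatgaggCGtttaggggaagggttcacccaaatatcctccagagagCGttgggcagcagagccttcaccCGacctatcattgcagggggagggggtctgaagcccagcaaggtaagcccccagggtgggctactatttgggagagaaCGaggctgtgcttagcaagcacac
Hoxa9: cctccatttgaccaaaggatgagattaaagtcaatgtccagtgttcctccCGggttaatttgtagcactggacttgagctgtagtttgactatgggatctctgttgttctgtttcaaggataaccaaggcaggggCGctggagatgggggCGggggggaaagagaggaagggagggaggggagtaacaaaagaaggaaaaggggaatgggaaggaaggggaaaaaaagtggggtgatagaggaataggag

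The number of CG dinucleotides in these windows was 28 for Hoxa5, 24 for Hoxa6, 7 for Hoxa7 and 3 for Hoxa9, against a median of 6 over 32851 RefSeq windows of the same length. The CG-rich Hoxa5 and Hoxa6 windows thus lie on both sides of the border, and the Hoxa9 window was the poorest of these 4. Their GC content was 63.6%, 65.2%, 54.8% and 49.6%, with a median of 52.4% over all windows. The RefSeq table held windows for 22 of the 38 members (24 windows), with a median of 12.5 CG dinucleotides and 58.6% GC. The Hoxa7 and Hoxa9 windows lie inside the longer GENCODE gene models, which start at 52221854 and 52231089. The Hoxa6 window overlaps its GENCODE gene model in part, as that model starts at 52208722. The BMAL1-bound E-box CACGTG, searched on both strands, was in 4 of the 24 member windows (Hoxd1, Hoxd10, Hoxd11 and Hoxd13, all under 1 FPKM in every library) and in 6.02% of all windows. The caudal-type letters TTTATNG were in 2 member windows (Hoxb8 and Hoxd4) and in 9.81% of all, and the nuclear receptor half-site AGGTCA in 6 (Hoxb4, Hoxc4, Hoxd10, Hoxd3, Hoxd4 and Hoxd8) and in 14.02% of all. None of the 3 motifs was in the 4 windows printed, which says only that these letters are not there.

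Of the 38 members, 12 had a course median of at least 1 FPKM in all 10 courses. They were Hoxa3, Hoxa5, Hoxb3, Hoxb4, Hoxb6, Hoxb7, Hoxb8, Hoxc4, Hoxc5, Hoxc6, Hoxc8 and Hoxd8, that is 4 anterior, 8 central and no posterior members. A further 7, Hoxa6, Hoxa7, Hoxa9, Hoxa10, Hoxb9, Hoxc9 and Hoxc10, reached this level in all 5 WT courses and in no Bmal1-/- course, and 5 of these are posterior. Hoxb2 alone reached it in all 5 Bmal1-/- courses and in no WT course. Another 6 members (Hoxa2, Hoxa4, Hoxb5, Hoxd3, Hoxd4 and Hoxd9) passed it in some courses only. The last 12 stayed under 1 FPKM in every library: the anterior Hoxb1 and Hoxd1, and the posterior Hoxa11, Hoxa13, Hoxb13, Hoxc11, Hoxc12, Hoxc13, Hoxd10, Hoxd11, Hoxd12 and Hoxd13, the genes of the distal limb, tail and urogenital end of the axis. The highest of these was Hoxc13, a hair follicle regulator, with a WT median of 0.155 FPKM, a WT maximum of 0.406 and a Bmal1-/- maximum of 0.0599.

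The border of the expressed stretch is set here by the last member with a median of at least 1 FPKM in all 5 courses. In Bmal1-/- cells it lay between positions 5 and 6 of HoxA and between positions 8 and 9 of the other clusters. HoxA was expressed up to Hoxa5, HoxB up to Hoxb8, HoxC up to Hoxc8 and HoxD up to Hoxd8. Beyond it, Hoxd9 reached 1 FPKM in 3 of the 5 Bmal1-/- courses. Not every lower-numbered member reached it in all 5: Hoxd4 did in 4 courses, Hoxb5 in 2, and Hoxa2, Hoxb1, Hoxd1 and Hoxd3 in none. In WT cells expression ran up to Hoxa10, Hoxb9, Hoxc10 and Hoxd9. Among the lower-numbered members there, Hoxa4 had a median of at least 1 FPKM in 4 courses and Hoxd4 in 3. Hoxa2 and Hoxd3 had it in 1 course each, and Hoxb1, Hoxb2 and Hoxd1 in none. The annotated start sites on either side of the Bmal1-/- border are 4135 bases apart between Hoxa5 and Hoxa6, 10448 between Hoxb8 and Hoxb9, 14168 between Hoxc8 and Hoxc9 and 6888 between Hoxd8 and Hoxd9. The clusters are on different chromosomes, at chr6:52162417-52260880 (HoxA), chr11:96194316-96368256 (HoxB), chr15:102921103-103036852 (HoxC) and chr2:74668310-74765142 (HoxD) on GRCm38.

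**Figure D1:**
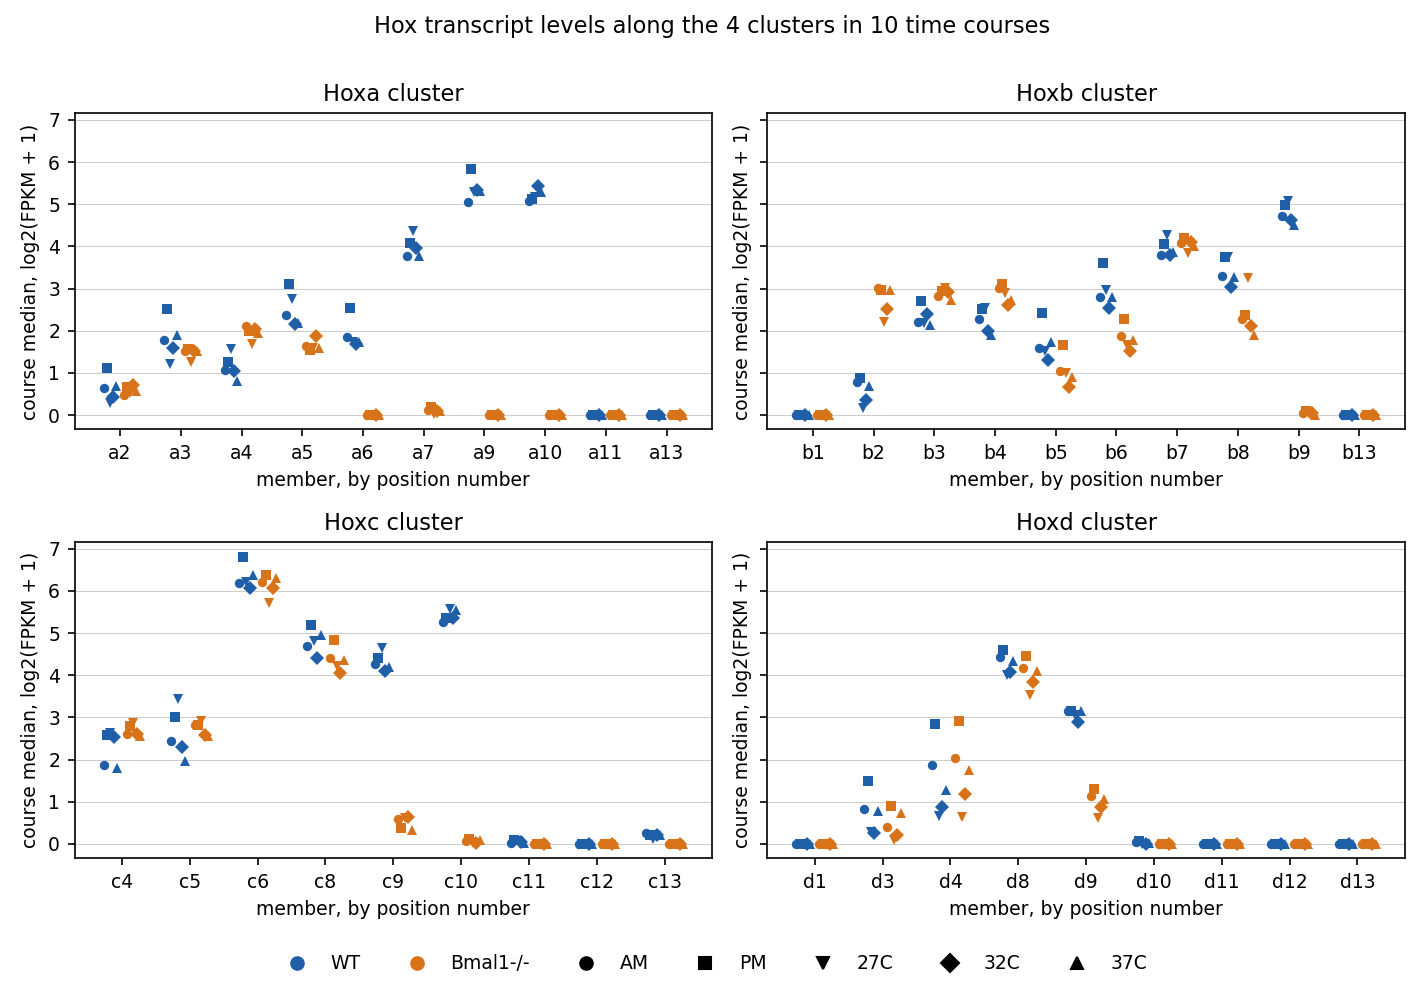
Course medians of log2(FPKM + 1) for each of the 38 members, in 1 panel per cluster and ordered by position number, with WT in blue, Bmal1-/- in orange and marker shapes for the 5 courses. From Hoxa6, Hoxb9 and Hoxc9 on the Bmal1-/- points drop to or near 0, less so for Hoxd9, and among the members before them Hoxb2 lies higher in Bmal1-/- and Hoxa5, Hoxb6 and Hoxb8 lie lower, by less than Hoxd9 in every pair of courses.

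Hoxc6, a central gene of the thoracic region, had the highest level of any member in every course, with course medians of 66.7 to 111.8 FPKM in WT and 51.2 to 82.6 in Bmal1-/-. Below it the order differed between genotypes. In WT the next places were held by posterior genes: Hoxc10 or Hoxa10 came second in 4 of the 5 courses and Hoxa9 in PM. In Bmal1-/- the next places were held by the central genes Hoxc8 (medians 15.6 to 27.7 FPKM), Hoxd8 (10.7 to 20.9) and Hoxb7 (13.5 to 17.3), whose ranges overlapped at 32 °C.

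Summed over the 38 members, Hox transcripts reached course medians of 339.5 to 473.2 FPKM in WT and 143.5 to 209.7 in Bmal1-/-. Posterior members made up 40.6 to 49.7% of the sum in WT (course medians) and 0.777 to 0.984% in Bmal1-/-. The lowest WT library was at 38.99% and the highest Bmal1-/- library at 1.30%, so the genotypes did not overlap in this share. Anterior members had summed medians of 15.6 to 31.9 FPKM in WT and 28.2 to 40.6 in Bmal1-/-, and central members 154.7 to 246.2 and 113.7 to 167.2. In bulk RNA, fewer cells that express a gene and less RNA per cell cannot be told apart.

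**Figure D2:**
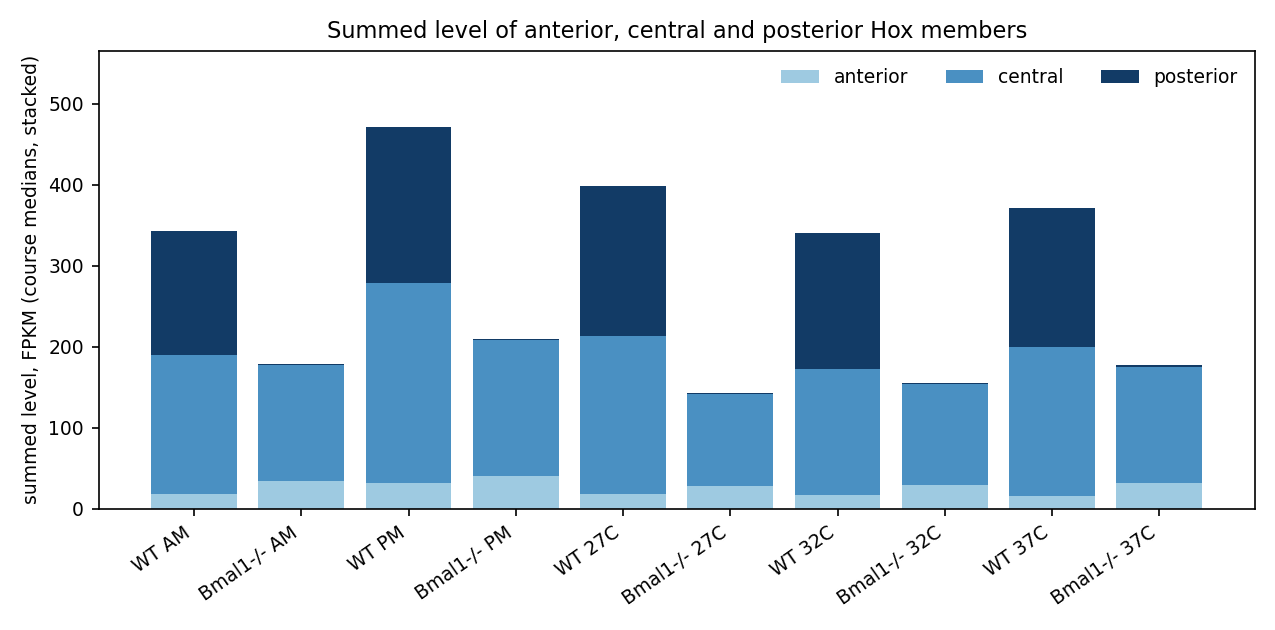
Stacked course medians of the summed FPKM of anterior, central and posterior members, 1 bar per course. The posterior part is 153.4 to 193.1 FPKM in the 5 WT courses and 1.13 to 1.89 in the 5 Bmal1-/- courses, where it is barely visible.

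The levels of the posterior and adjacent members differed between genotypes by the widest margins. Over all 210 libraries, 8 members had every WT library above every Bmal1-/- library (Hoxa6, Hoxa7, Hoxa9, Hoxa10, Hoxb9, Hoxc9, Hoxc10 and Hoxd9), a separation found for 2.94% of the 13164 genes whose mean reached 1 FPKM. Hoxb2 was the only member with the reverse separation, found for 3.49% of genes. The other 29 members overlapped. The contrast that drew attention to the family is part of these libraries, so these counts are a description. Levels in the paragraphs that follow are in FPKM.

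Hoxa9, which patterns the lower thoracic and lumbar region and also acts in blood progenitors, ran in WT from 26.4 to 40.6 with a median of 32.5 in AM, from 49.7 to 70.2 with a median of 55.8 in PM, from 31.8 to 48.5 with a median of 38.5 at 27 °C, from 33.5 to 53.4 with a median of 39.4 at 32 °C, and from 31.5 to 48.2 with a median of 38.7 at 37 °C. The Bmal1-/- libraries held 0 in 68 of 105 cases, all 5 course medians were 0, and the highest library was at 0.315 FPKM, in PM. The lowest WT library, at 26.4 FPKM, was far above it.

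Hoxa10, best known from the uterus and the lumbar spine, ran in WT from 28.7 to 34.4 with a median of 32.7 in AM, from 30.5 to 38.2 with a median of 34.2 in PM, from 27.3 to 39.3 with a median of 34.8 at 27 °C, from 35.9 to 47.3 with a median of 42.1 at 32 °C, and from 34.99 to 42.03 with a median of 38.3 at 37 °C. It was 0 in 74 of the 105 Bmal1-/- libraries, and the highest of these was at 0.106 FPKM. The WT course at 32 °C had the highest median, and its libraries lay above all AM libraries, which the PM and 27 °C ranges overlapped.

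Hoxc10, a gene of the lumbar region and the hindlimb, ran in WT from 33.01 to 43.9 with a median of 37.6 in AM, from 35.8 to 42.3 with a median of 40.3 in PM, from 38.4 to 49.3 with a median of 46.8 at 27 °C, from 34.3 to 49.9 with a median of 40.3 at 32 °C, and from 38.9 to 51.2 with a median of 45.8 at 37 °C. Its Bmal1-/- course medians were 0.0211 to 0.0793 FPKM, with a highest library of 0.182, and 20 of 105 libraries were at 0. In these cells Hoxc10 was thus among the most highly expressed Hox genes of WT and in Bmal1-/- at an estimated 8.12 reads or fewer per library at the median depth.

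Hoxb9, which acts with Hoxa9 and Hoxd9 in the thoracic and mammary programme, ran in WT from 22.6 to 29.00 with a median of 25.6 in AM, from 28.2 to 33.9 with a median of 30.5 in PM, from 27.3 to 36.3 with a median of 32.98 at 27 °C, from 21.4 to 25.9 with a median of 23.7 at 32 °C, and from 18.6 to 27.3 with a median of 21.9 at 37 °C. The Bmal1-/- medians were 0 to 0.0654 FPKM and the highest library 0.247. The nearest neighbours in the cluster, Hoxb8 and Hoxb7, were expressed in both genotypes.

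Hoxa7 ran in WT from 10.8 to 19.03 with a median of 12.7 in AM, from 13.99 to 19.3 with a median of 15.8 in PM, from 16.7 to 22.5 with a median of 19.6 at 27 °C, from 12.7 to 16.2 with a median of 14.5 at 32 °C, and from 10.8 to 14.7 with a median of 12.7 at 37 °C. Its Bmal1-/- medians were 0.0245 to 0.151 FPKM with a highest library of 0.384. Hoxa6, next to it, ran in WT from 1.36 to 4.55 with a median of 2.58 in AM, from 3.18 to 6.45 with a median of 4.78 in PM, from 1.43 to 3.23 with a median of 2.34 at 27 °C, from 1.74 to 3.74 with a median of 2.24 at 32 °C, and from 1.62 to 3.68 with a median of 2.300 at 37 °C, and was 0 in 82 of 105 Bmal1-/- libraries with a highest value of 0.188. These were the only central members whose genotypes did not overlap. The antisense gene Hoxaas3 shares exon sequence with Hoxa7, and no source used here gives the strand setting used for counting.

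Hoxc9 and Hoxd9 differed from the others in keeping a measurable level in Bmal1-/-. Hoxc9 ran in WT from 15.8 to 20.5 with a median of 18.2 in AM, from 18.1 to 23.5 with a median of 20.4 in PM, from 21.5 to 26.8 with a median of 23.99 at 27 °C, from 13.8 to 19.1 with a median of 16.1 at 32 °C, and from 14.9 to 20.7 with a median of 17.5 at 37 °C. In Bmal1-/- it ran from 0.263 to 0.856 with a median of 0.5005 in AM, from 0.145 to 0.485 with a median of 0.292 in PM, from 0.309 to 0.719 with a median of 0.532 at 27 °C, from 0.4402 to 0.776 with a median of 0.551 at 32 °C, and from 0.152 to 0.617 with a median of 0.253 at 37 °C. No Bmal1-/- library was at 0.

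Hoxd9 in WT ran from 6.21 to 9.17 with a median of 7.93 in AM, from 6.97 to 9.63 with a median of 7.87 in PM, from 5.76 to 8.39 with a median of 7.29 at 27 °C, from 5.61 to 7.66 with a median of 6.39 at 32 °C, and from 6.12 to 8.73 with a median of 7.88 at 37 °C. In Bmal1-/- it ran from 0.978 to 1.45 with a median of 1.21 in AM, from 0.985 to 1.996 with a median of 1.47 in PM, from 0.4301 to 0.814 with a median of 0.523 at 27 °C, from 0.509 to 1.09 with a median of 0.825 at 32 °C, and from 0.745 to 1.43 with a median of 1.08 at 37 °C. Hoxd9 had the highest Bmal1-/- median of the posterior members in every course but the one at 27 °C, where Hoxc9 was at 0.532 FPKM. The highest Bmal1-/- library stayed below the lowest WT library of 5.61 FPKM.

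Hoxb2, a gene of hindbrain segments, went the other way. In WT it ran from 0.143 to 1.81 with a median of 0.715 in AM, from 0.557 to 1.13 with a median of 0.836 in PM, from 0 to 0.368 with a median of 0.132 at 27 °C, from 0.0626 to 0.542 with a median of 0.273 at 32 °C, and from 0.0857 to 0.837 with a median of 0.604 at 37 °C. In Bmal1-/- it ran from 5.597 to 8.64 with a median of 7.12 in AM, from 5.23 to 7.89 with a median of 6.85 in PM, from 2.07 to 4.35 with a median of 3.59 at 27 °C, from 3.34 to 5.94 with a median of 4.68 at 32 °C, and from 5.63 to 8.42 with a median of 6.85 at 37 °C. The highest WT library, at 1.81 FPKM, was below the lowest Bmal1-/- library, at 2.07. The antisense gene Hoxb3os shares exon sequence with Hoxb2 and Hoxb3.

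In the courses at 27, 32 and 37 °C, 24 of the 38 members reached a mean of 1 FPKM and entered the limma fit. A member that passed only through the genotype in which it is high had to differ, so the counts that follow describe the members and are not support for a difference. Between genotypes, 10 were called (adjusted p under 0.05, at least 2-fold, same sign at each temperature), 1 higher and 9 lower in Bmal1-/-, where 12.9% of all genes tested were called. The direction split over all genes was 5.93% higher and 7.0% lower. The median difference, Bmal1-/- minus WT on the log2(FPKM + 1) scale, was -0.57 over the members and -0.0187 over all genes.

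All 6 tested posterior members were called lower, with a median log2 difference of -4.98. The differences were -5.43 ± 0.0107 (SE) for Hoxc10, -5.30 ± 0.0132 for Hoxa9, -5.26 ± 0.0114 for Hoxa10, -4.70 ± 0.0106 for Hoxb9, -3.80 ± 0.0162 for Hoxc9 and -2.16 ± 0.0186 for Hoxd9. Among 11 central members, 3 were called lower: Hoxa7 at -3.93 ± 0.0152, Hoxa6 at -1.71 ± 0.0247 and Hoxb6 at -1.10 ± 0.0218. Among 7 anterior members, Hoxb2 was called higher at 2.15 ± 0.0255 and the median difference was 0.60. Of these 10, Hoxb6 is the only one with a course median of at least 1 FPKM in all 10 courses (limma, adjusted p = 3.86e-82). For members at 0 in many Bmal1-/- libraries the size of the log2 difference depends on the pseudocount of 1 FPKM.

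Several members that were not called also lay apart between genotypes on a smaller scale. Hoxa4 was 0.74 ± 0.0267 higher in Bmal1-/-, Hoxb3 0.66 ± 0.0273 and Hoxb4 0.60 ± 0.0148, all with adjusted p under the threshold in limma's test and all anterior. Hoxb8 had a difference of -0.92 ± 0.0192, Hoxa5 of -0.66 ± 0.0224, Hoxb5 of -0.64 ± 0.0253 and Hoxc8 of -0.51 ± 0.0133. With a pseudocount of 0.1 FPKM the differences of Hoxa4 (1.14), Hoxb5 (-1.08) and Hoxb8 (-1.08) passed 2-fold. The course medians of these members were 3.41 to 5.51 FPKM in WT and 5.65 to 7.07 in Bmal1-/- for Hoxb3, 2.74 to 4.86 and 5.09 to 7.64 for Hoxb4, 3.47 to 7.70 and 1.90 to 2.67 for Hoxa5, 1.48 to 4.39 and 0.600 to 2.16 for Hoxb5, and 20.4 to 35.7 and 15.6 to 27.7 for Hoxc8. Hoxb6 had course medians of 4.85 to 11.1 FPKM in WT and 1.88 to 3.88 in Bmal1-/-. Hoxd8 was at -0.33 ± 0.0242 with medians of 15.2 to 23.2 and 10.7 to 20.9 FPKM, and Hoxc6 at -0.20 ± 0.0116. Hoxa2, with medians of 0.219 to 1.18 FPKM in WT and 0.393 to 0.648 in Bmal1-/-, and Hoxd3 were too low to be tested in the temperature courses.

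Hoxb7, Hoxc5 and Hoxa3 had the smallest genotype differences among members expressed in both when averaged over the 3 temperatures, and each changed sign between temperatures. Hoxb7, a central trunk gene, ran in WT from 11.4 to 15.2 with a median of 12.9 in AM, from 13.97 to 19.1 with a median of 15.7 in PM, from 16.2 to 20.3 with a median of 18.2 at 27 °C, from 10.1 to 14.2 with a median of 12.8 at 32 °C, and from 11.9 to 16.7 with a median of 13.6 at 37 °C. In Bmal1-/- it ran from 13.7 to 17.3 with a median of 15.9 in AM, from 13.5 to 18.1 with a median of 17.3 in PM, from 10.8 to 15.7 with a median of 13.5 at 27 °C, from 13.9 to 17.2 with a median of 16.1 at 32 °C, and from 12.8 to 18.2 with a median of 15.01 at 37 °C. The genotypes overlapped in every pair of courses but the one at 27 °C, where all WT libraries lay above all Bmal1-/- libraries. The difference over the 3 temperatures was 0.0032 ± 0.016 (limma, adjusted p = 0.852). By temperature it was -0.41 at 27 °C, 0.28 at 32 °C and 0.14 at 37 °C, so the average joins courses that differ in sign. The differences of Hoxc5 were -0.48 at 27 °C, 0.26 at 32 °C and 0.60 at 37 °C, and those of Hoxa3 were 0.0944, -0.11 and -0.40. In the AM and PM courses together, Hoxb7 was at 0.159, Hoxc5 at 0.194 and Hoxa3 at -0.58. Hoxc5 and Hoxa3 lay further from 0 than Hoxd4 (0.149), Hoxd8 (-0.172) and Hoxc6 (-0.187). Of these last members, Hoxb7 lay further from 0 than Hoxd4 only.

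Hoxa3, which acts in the pharyngeal region, ran in WT from 1.35 to 8.38 with a median of 2.46 in AM, from 3.46 to 7.07 with a median of 4.68 in PM, from 0.696 to 1.57 with a median of 1.303 at 27 °C, from 1.56 to 4.53 with a median of 2.01 at 32 °C, and from 1.97 to 5.24 with a median of 2.72 at 37 °C. In Bmal1-/- it ran from 1.05 to 3.295 with a median of 1.85 in AM, from 1.52 to 3.65 with a median of 1.99 in PM, from 0.9296 to 2.06 with a median of 1.39 at 27 °C, from 1.22 to 2.73 with a median of 1.89 at 32 °C, and from 1.36 to 2.75 with a median of 1.88 at 37 °C. The difference over the 3 temperatures was -0.14 ± 0.0303. The Hoxa3 gene model shares exon sequence with several antisense RNAs, so part of its level may belong to them.

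**Figure D3:**
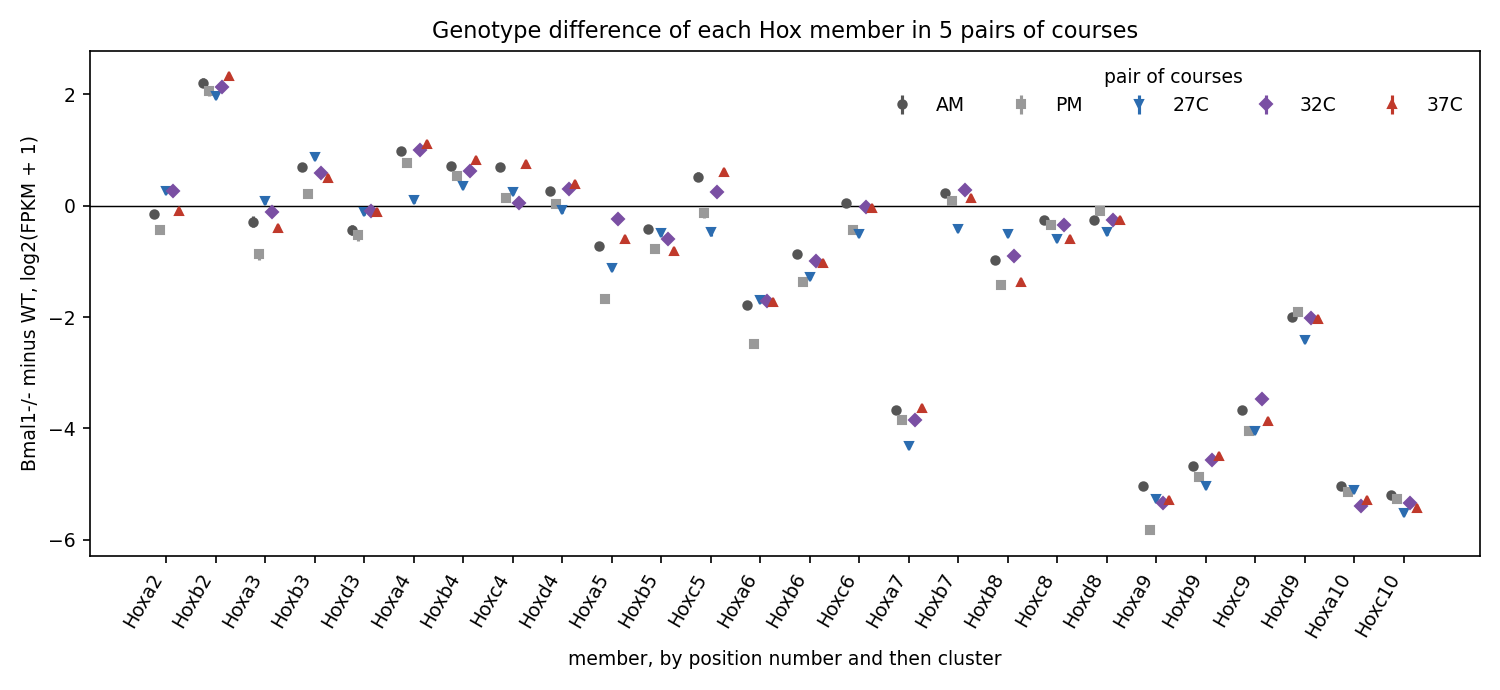
Genotype difference, Bmal1-/- minus WT on the log2(FPKM + 1) scale, of the 26 members that reached 1 FPKM in any library, fitted with no filter on low values and ordered by position number, with 1 marker per pair of courses and error bars of 1 SE that are mostly smaller than the markers. Hoxb2 sits highest in all 5 pairs, the other anterior members and most central members lie closer to 0 on either side of it, and Hoxc10, Hoxa9 and Hoxa10 lie lowest.

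In the AM and PM courses, 25 members were tested, and 1 was higher and 11 lower by the same rule, where 14.5% of all genes were called, 7.01% higher and 7.53% lower. Since these courses gave rise to the choice of the family, no p-value is attached. The log2 differences were -5.44 for Hoxa9, -5.23 for Hoxc10, -5.10 for Hoxa10, -4.77 for Hoxb9, -3.86 for Hoxc9, -3.77 for Hoxa7, -2.13 for Hoxa6, -1.95 for Hoxd9 and -1.12 for Hoxb6, and 2.14 for Hoxb2. The other lower members were Hoxb8 (-1.20) and Hoxa5 (-1.19), which in the temperature courses were at -0.92 and -0.66. Hoxa5, a regulator of lung and thoracic skeleton, was lower in Bmal1-/- in each pair of courses, with differences of -1.67 in PM, -1.12 at 27 °C, -0.71 in AM, -0.60 at 37 °C and -0.24 at 32 °C.

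Counts of members called between culture temperatures are on the log2(FPKM + 1) scale and change with the pseudocount. The temperatures are 3 separate courses per genotype. Between 27 and 37 °C in WT, 1 of 24 tested members was called (background 13.6%, with 8.4% higher and 5.21% lower), Hoxc5, higher at 27 °C. The members' median difference was -0.0028, and that of all genes 0.21. In Bmal1-/-, 2 were called (background 11.7%, with 7.62% higher and 4.05% lower), Hoxb8 higher and Hoxd4 lower at 27 °C, with a median of -0.0362 over members and 0.21 over all genes. The 24 include the 7 members that reached a course median of 1 FPKM in WT only (Hoxa6, Hoxa7, Hoxa9, Hoxa10, Hoxb9, Hoxc9 and Hoxc10), whose Bmal1-/- medians were all under 1 FPKM. Without them, a count added after the data were seen, 2 of 17 were called, near the 11.7% of all genes, and the median was -0.14. With median-of-ratios scaling the medians of all genes went to 0.0003 in WT and 0.0008 in Bmal1-/-, those of the members to -0.21 and -0.0932, and 14 of 24 members in WT and 17 of 24 in Bmal1-/- were below 0 at 27 °C, against 12 and 14 as deposited.

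Hoxc5, a central gene of the cervical and upper thoracic region, was highest in WT at 27 °C. In WT it ran from 2.56 to 6.97 with a median of 4.45 in AM, from 4.77 to 9.0 with a median of 7.08 in PM, from 6.396 to 13.3 with a median of 9.82 at 27 °C, from 2.43 to 6.02 with a median of 3.93 at 32 °C, and from 1.93 to 4.696 with a median of 2.92 at 37 °C. The 27 and 37 °C ranges did not overlap, and the log2 difference was 1.43 ± 0.0577 (limma, adjusted p = 1.97e-48). In Bmal1-/- it ran from 4.83 to 8.903 with a median of 6.05 in AM, from 4.46 to 8.06 with a median of 6.12 in PM, from 5.68 to 8.11 with a median of 6.58 at 27 °C, from 3.56 to 6.601 with a median of 5.01 at 32 °C, and from 3.26 to 6.697 with a median of 4.91 at 37 °C, with a difference of 0.35 ± 0.0577 between 27 and 37 °C. The Hoxc5 gene model extends over Hoxc10 and shares exon sequence with it, so these levels carry an uncertainty of assignment. Hoxc10 itself differed by 0.0178 ± 0.0186 between 27 and 37 °C in WT.

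Hoxb8, a trunk gene that also marks spinal and myeloid cells, stood out in Bmal1-/- at 27 °C. In Bmal1-/- it ran from 3.34 to 5.16 with a median of 3.88 in AM, from 2.75 to 4.72 with a median of 4.21 in PM, from 7.36 to 10.1 with a median of 8.55 at 27 °C, from 3.05 to 4.08 with a median of 3.35 at 32 °C, and from 2.296 to 3.46 with a median of 2.73 at 37 °C. The 27 °C libraries lay above all other Bmal1-/- libraries, and the log2 difference from 37 °C was 1.34 ± 0.0333 (limma, adjusted p = 1.47e-70), a 3.13-fold ratio of course medians. In WT it ran from 6.51 to 12.4 with a median of 8.895 in AM, from 10.3 to 14.8 with a median of 12.5 in PM, from 9.97 to 15.7 with a median of 12.4 at 27 °C, from 5.86 to 8.92 with a median of 7.26 at 32 °C, and from 7.67 to 10.4 with a median of 8.67 at 37 °C, with a difference of 0.49 ± 0.0333. The difference between genotypes in this change was 0.86 ± 0.0471 (limma, adjusted p = 5.41e-35), under 2-fold on the log2(FPKM + 1) scale.

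Hoxd4, a gene of the hindbrain border and the neck, was lowest at 27 °C in both genotypes. In WT it ran from 1.19 to 3.396 with a median of 2.64 in AM, from 4.22 to 8.96 with a median of 6.19 in PM, from 0.196 to 1.12 with a median of 0.582 at 27 °C, from 0.208 to 1.69 with a median of 0.838 at 32 °C, and from 0.717 to 2.25 with a median of 1.41 at 37 °C. In Bmal1-/- it ran from 1.64 to 5.07 with a median of 3.13 in AM, from 4.15 to 9.78 with a median of 6.56 in PM, from 0.188 to 1.23 with a median of 0.561 at 27 °C, from 0.627 to 1.92 with a median of 1.28 at 32 °C, and from 0.902 to 3.51 with a median of 2.35 at 37 °C. Ranges at 27 and 37 °C overlapped in both. The log2 difference was -1.03 ± 0.0603 in Bmal1-/- (limma, adjusted p = 1.32e-33) and -0.57 ± 0.0603 in WT. Hoxd3 and Hoxd4 share exons in the annotation, so reads may be split between them. Hoxd3 itself had course medians of 0.204 to 1.79 FPKM in WT and 0.0637 to 0.875 in Bmal1-/-.

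Hoxc4, an anterior gene of the neck, ran in WT from 1.98 to 3.55 with a median of 2.66 in AM, from 3.696 to 6.91 with a median of 5.03 in PM, from 3.78 to 6.43 with a median of 5.15 at 27 °C, from 4.16 to 6.004 with a median of 4.79 at 32 °C, and from 1.69 to 3.33 with a median of 2.51 at 37 °C. In Bmal1-/- it ran from 3.88 to 5.65 with a median of 5.14 in AM, from 4.36 to 6.46 with a median of 5.97 in PM, from 5.23 to 6.93 with a median of 6.27 at 27 °C, from 4.39 to 5.58 with a median of 5.07 at 32 °C, and from 4.16 to 5.595 with a median of 4.88 at 37 °C. In WT its 27 and 32 °C libraries lay above all 37 °C libraries, with log2 differences of 0.81 ± 0.0343 and 0.75 ± 0.0339. In Bmal1-/- the 27 °C difference was 0.31 ± 0.0343 and the 32 °C difference 0.05 ± 0.0339.

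On the log2(FPKM + 1) scale the remaining tested members differed by less than 2-fold between 27 and 37 °C. Some course medians in FPKM lay further apart. In WT they were 0.132 at 27 °C and 0.604 at 37 °C for Hoxb2, and 1.97 and 0.760 for Hoxa4. In WT the next upward differences were 0.73 for Hoxa4, 0.64 for Hoxb4, 0.59 for Hoxa7, 0.55 for Hoxb9 and 0.53 for Hoxa5, followed by Hoxc9 (0.43), Hoxb7 (0.37) and Hoxb6 (0.11), and the downward ones reached -0.77 for Hoxa3 and -0.45 for Hoxb2. In Bmal1-/- the downward differences reached -0.80 for Hoxb2, -0.60 for Hoxc6 and -0.55 for Hoxd8, and the upward ones beside Hoxb8, Hoxc5 and Hoxc4 reached 0.35 for Hoxb3 and 0.24 for Hoxc9. Hoxa9 and Hoxc10, despite their high WT level, moved by -0.0234 ± 0.023 and 0.0178 ± 0.0186 in WT.

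Between 32 and 37 °C limma called 0 of 24 members in WT (background 3.29%) and 0 in Bmal1-/- (background 2.71%). The 2-fold limit was not reached on the log2(FPKM + 1) scale. At an unadjusted p under 0.05, 22 members differed in WT and 16 in Bmal1-/-. Their differences ran from -0.54 (Hoxc8) to 0.75 (Hoxc4) in WT and from -0.49 (Hoxd4) to 0.32 (Hoxa5) in Bmal1-/-. Without the 7 members expressed in WT only, 0 of 17 were called there and 13 had an unadjusted p under 0.05.

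**Figure D4:**
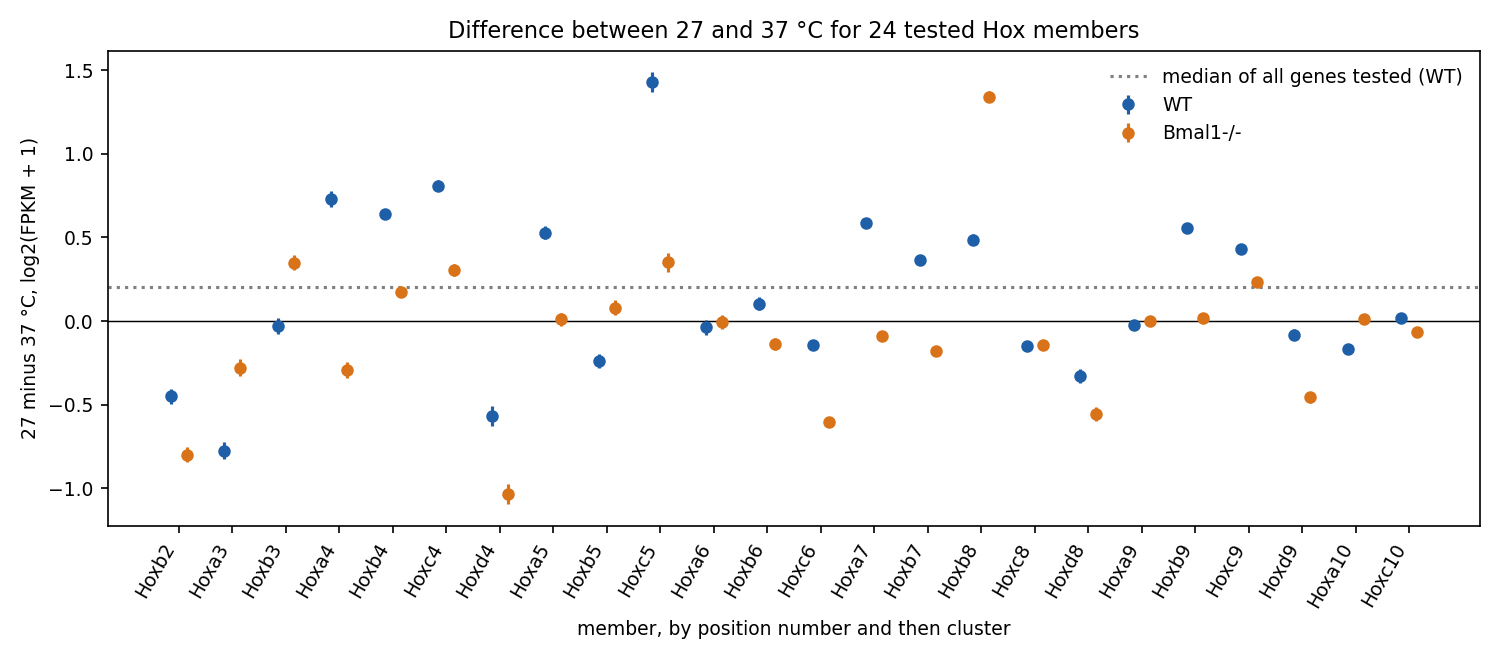
Difference between 27 and 37 °C on the log2(FPKM + 1) scale for the 24 tested members, WT in blue and Bmal1-/- in orange, with bars of 1 SE and a dotted line at the median of all genes in WT (0.21). Hoxc5 in WT (1.43) and Hoxb8 in Bmal1-/- (1.34) lie highest, and Hoxd4 in Bmal1-/- (-1.03) lowest.

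The change with temperature was then compared between genotypes by an interaction term, the 27 minus 37 °C difference in Bmal1-/- minus that in WT. It was called for 2 of 24 members (background 4.43%), Hoxc5 at -1.08 ± 0.0817 (limma, adjusted p = 3.86e-24) and Hoxa4 at -1.02 ± 0.0657 (adjusted p = 2.13e-29). Hoxa4, an anterior gene, had WT medians of 1.97 FPKM at 27 °C, 1.08 at 32 °C and 0.760 at 37 °C, and Bmal1-/- medians of 2.20, 3.13 and 2.83. Its level thus differed between genotypes at 37 °C, where the WT maximum of 1.48 was below the Bmal1-/- minimum of 2.25. The same held at 32 °C, with a WT maximum of 1.88 and a Bmal1-/- minimum of 2.26. The AM and PM ranges were separate too, while those at 27 °C overlapped. The members' median was -0.29 (-0.38 over the 17 without the 7 members expressed in WT only) and that of all genes -0.0048.

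Between the PM and AM courses, 1 of 25 tested members was called in WT (background 2.38%), Hoxd4, higher in PM by 1.08 ± 0.0773 (limma, adjusted p = 1.76e-18). With median-of-ratios scaling this difference was 0.99 and 0 members were called. All 25 differences were above 0 in WT, with a median of 0.47 against 0.0795 over all genes. With median-of-ratios scaling 23 of the 25 were above 0, with medians of 0.35 over the members and -0.0236 over all genes. The next in size were Hoxb5 (0.94), Hoxa5 (0.85), Hoxa9 (0.83) and Hoxb6 (0.81). Among the highly expressed members, Hoxa9 and Hoxc6 had PM ranges wholly above their AM ranges in WT, at 49.7 to 70.2 against 26.4 to 40.6 FPKM and 99.7 to 123.3 against 61.2 to 77.0. In Bmal1-/- limma called 0 of 25 (background 1.16%), with 15 at an unadjusted p under 0.05, 20 of 25 differences above 0 and a median of 0.0820 against 0.0800 over all genes. Without the 7 members expressed in WT only, 0 of 18 were called, 13 had an unadjusted p under 0.05, 14 were above 0 and the median was 0.13. Hoxd4 at 0.85 ± 0.0773, Hoxd3 at 0.61 ± 0.097 and Hoxb5 at 0.59 ± 0.0621 were the largest of these. Whether the PM to AM difference itself differed between genotypes was not tested.

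Over time within a course, 24 h rhythms were few. In WT, 5 of 122 pairs of a member and a course were called rhythmic (background 3.37%), and 3 of the 5 were Hoxa9. Its amplitude, from mid-level to peak on the log2 scale, was 0.17 at 27 °C (peak at 4.41 h by time label, limma, adjusted p = 7.06e-05), 0.15 at 32 °C (7.17 h, adjusted p = 8.84e-05) and 0.12 at 37 °C (7.43 h, adjusted p = 0.00254). In AM it was 0.13 with a peak at 7.04 h and in PM 0.0862 with a peak at 15.8 h, neither called (adjusted p = 0.151 and 0.449). The spread in this fit is shared with the Bmal1-/- courses, in which Hoxa9 was at or near 0. When each WT course was fitted with the spread of its own course only, the adjusted p was 0.109 at 27 °C, 0.0086 at 32 °C and 0.0741 at 37 °C. The other WT calls, Hoxa5 at 27 °C (amplitude 0.16) and Hoxa6 in AM (0.24), were lost in that fit, at adjusted p = 0.118 and 0.262. With a pseudocount of 0.1 FPKM 0 of the 122 WT pairs were called, and Hoxa9 had adjusted p = 0.472 at 27 °C, 0.831 at 32 °C and 0.534 at 37 °C.

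In Bmal1-/-, 7 of 122 pairs were called (background 5.34%). Of the 122 pairs, 35 belong to the 7 members expressed in WT only, and without them 6 of 87 were called. Hoxd4 had the largest amplitudes, 0.42 at 37 °C with a peak at 6.47 h (limma, adjusted p = 1.63e-06) and 0.32 in AM with a peak at 6.57 h (adjusted p = 0.0455). At 27 and 32 °C, where its level was lower, the amplitudes were 0.16 and 0.21 (adjusted p = 0.271 and 0.161), and in PM, where it was highest, 0.13 (adjusted p = 0.666). In WT the Hoxd4 amplitude at 37 °C was 0.18 (adjusted p = 0.17). The difference between genotypes was not tested. Hoxb5 at 37 °C (0.23), Hoxc9 in AM (0.21), Hoxb3 at 37 °C (0.17), Hoxc8 at 27 °C (0.11) and Hoxc6 at 27 °C (0.0703) were the other calls. With the spread of the course alone, Hoxd4 at 37 °C had an adjusted p of 0.00227 and Hoxd4 in AM of 0.0868. In the same fit Hoxc8 at 27 °C was at 0.0438, Hoxc6 at 27 °C at 0.0968 and Hoxb3 at 37 °C at 0.296, while Hoxb5 at 37 °C and Hoxc9 in AM were under a mean of 1 FPKM in their own course and were not tested.

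Drift over a course was also small. A linear trend was called for 18 of 122 pairs in WT (background 24.8%, with 11.9% rising and 12.9% falling), 11 rising and 7 falling, and for 12 of 122 in Bmal1-/- (background 17.6%, with 8.27% rising and 9.31% falling), 8 rising and 4 falling. Without the 7 members expressed in WT only, 11 of 87 pairs were called there. The clearest in WT was Hoxc10, with slopes of -0.25 per 24 h on the log2 scale at 32 °C (limma, adjusted p = 1.07e-15) and -0.14 at 37 °C (adjusted p = 1.54e-06). Hoxc6 rose by 0.15 per 24 h at 27 °C (adjusted p = 4.18e-06) and Hoxa9 fell by 0.14 at 32 °C (adjusted p = 6.14e-05). The spread in this fit is shared with the Bmal1-/- courses, where Hoxc10 and Hoxa9 had medians of 0.0404 and 0 FPKM over all libraries. Hoxa9 also had a slope of 0.11 at 27 °C (adjusted p = 0.00374, and 0.0542 with the spread of the course alone) and of -0.10 at 37 °C (adjusted p = 0.00557, and 0.0598 alone), so its drift had no common direction. In Bmal1-/- the clearest were Hoxb7 at 27 °C (0.17, adjusted p = 0.000256) and Hoxc8, which rose at 32 °C (0.13, adjusted p = 0.000872) and at 37 °C (0.12, adjusted p = 0.001). Hoxc6 rose at 27 °C (0.12, adjusted p = 0.000569) and fell at 37 °C (-0.0818, adjusted p = 0.0102), so its drift had no common direction.

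**Figure D5:**
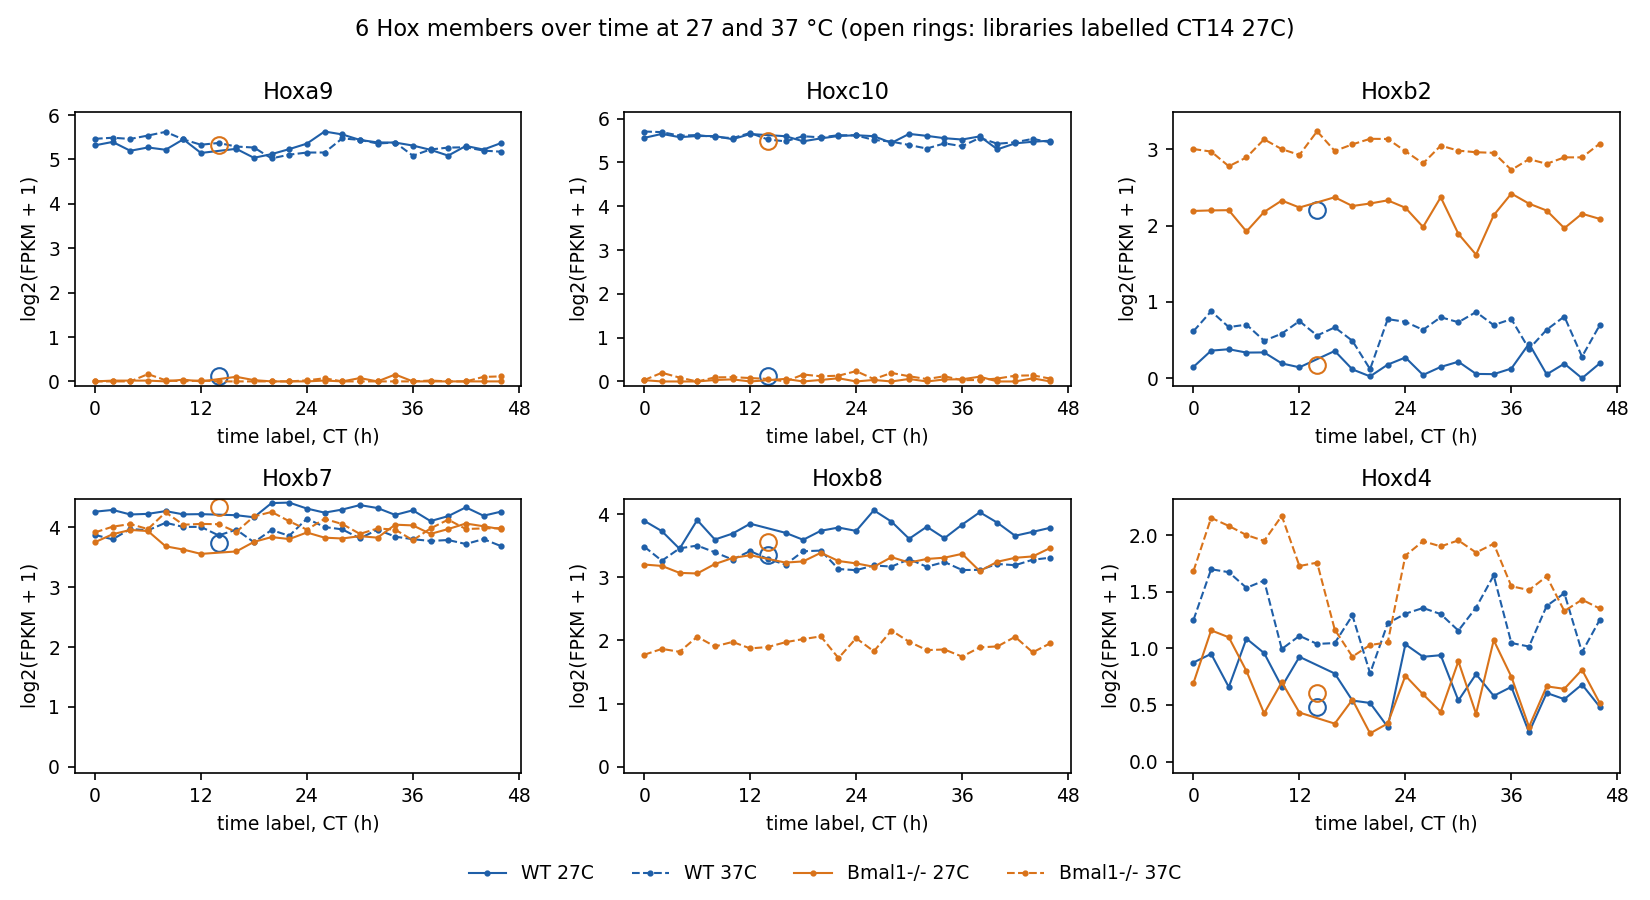
log2(FPKM + 1) against time label for 6 members at 27 °C (solid) and 37 °C (dashed), WT in blue and Bmal1-/- in orange, 1 point per library, with open rings for the libraries labelled CT14 27C, which were left out. The lines of each course run nearly flat and the genotypes stay apart for Hoxa9, Hoxc10 and Hoxb2, Hoxb8 at 27 °C in Bmal1-/- lies apart from 37 °C, Hoxd4 in Bmal1-/- at 37 °C rises and falls, and the ringed libraries lie at the level of the other genotype for Hoxa9, Hoxc10 and Hoxb2.

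The TALE cofactors that bind DNA together with Hox proteins were all expressed highly enough to be tested (9 of 9). Between genotypes in the temperature courses 4 were higher and 1 lower in Bmal1-/-, with a median of 0.44, where 5.93% of all genes tested were called higher and 7.0% lower and their median was -0.0187. The higher ones were Pbx4 (2.79 ± 0.0451), Pknox2 (2.22 ± 0.0439), Meis3 (2.005 ± 0.028) and Meis1 (1.46 ± 0.0189), and the lower one was Pbx3 (-1.03 ± 0.0284). Meis1, a partner of anterior and posterior Hox proteins, had course medians of 5.33 to 11.5 FPKM in WT and 20.4 to 26.7 in Bmal1-/-. At 27 against 37 °C none of the 9 was called in WT. In Bmal1-/- Pbx4 was called higher (1.61 ± 0.0784) and Pknox1 lower (-1.14 ± 0.0295). Pknox1 was also lower in WT, at -0.91 ± 0.0295, short of the 2-fold limit. The difference between genotypes in its change was -0.23 ± 0.0417 and not called. Pbx4 was at 0.21 ± 0.0784 in WT. At 32 against 37 °C Pbx4 was also higher in Bmal1-/- (1.08 ± 0.0775).

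Of 14 listed noncoding RNAs of the clusters, 6 were tested. Over all genes tested in the temperature courses, 5.93% were called higher in Bmal1-/-. At 27 against 37 °C, 8.4% of all genes were called higher in WT and 7.62% in Bmal1-/-, with a median difference of 0.21 in each. Halr1, transcribed from the anterior side of HoxA, was called higher in Bmal1-/- (3.34 ± 0.0529), with course medians of 0.322 to 1.66 FPKM in WT and 9.38 to 26.6 in Bmal1-/-. Hotairm1, also from the anterior end of HoxA, was higher at 27 than at 37 °C by 1.36 ± 0.0772 in WT and 1.54 ± 0.0772 in Bmal1-/-. Hoxd3os1 (1.41 ± 0.0508 and 1.23 ± 0.0508) and Hoxaas3 (1.68 ± 0.0843 and 1.17 ± 0.0843) rose in the same comparison, and Halr1 fell by 1.35 ± 0.092 in Bmal1-/-. The Hox genes that share exon sequence with Hoxd3os1 are Hoxd3 and Hoxd4, and those with Hoxaas3 are Hoxa3 and Hoxa7. At 32 against 37 °C Hotairm1 was higher in both genotypes (1.37 ± 0.0763 in WT and 1.44 ± 0.0763 in Bmal1-/-). Hoxd3os1 was called in WT (1.02 ± 0.0502) and was at 0.73 ± 0.0502 in Bmal1-/-. In PM against AM, Hoxb5os was higher in WT (1.56 ± 0.335).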

How the data were processed

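Poly(A) RNA of 212 libraries was sequenced as stranded single-end reads of 101 bases, per the labels' protocols. The values are FPKM per gene as the authors deposited them. TopHat, TopHat2 2.1.0, Cuffdiff and the build GRCm38 are named in the submitters' processing notes, and no source used here gives the annotation, the strand setting or the scaling. Gene symbols and coordinates were taken from GENCODE M21 (GRCm38), which matched 47217 of 47631 gene IDs, and 33393 genes were above 0 in any library. Promoter windows came from RefSeq (GRCm38.p6). Depth was estimated from the value of 1 read in 1357 genes of low level, where 94.7% of 28007 values were whole multiples within 0.15 read.

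Values were tested as log2(FPKM + 1) with limma 3.58.1 in R 4.3.3, with an intensity trend, over genes whose mean reached 1 FPKM (13031 in the temperature courses, 13307 in AM and PM) and Benjamini-Hochberg adjustment over all genes tested. A fold change on this scale understates the change of low genes. Each course had its own level, a slope over time, and a cosine and a sine of 24 h period. A level was called where the adjusted p was under 0.05 and the change 2-fold or more, and for genotype with the same sign in each course pair. A rhythm or trend was called at an adjusted p under 0.05. The fit was tested on simulated data. Tables and plots were made with Python 3.11.15, pandas 2.3.3, numpy 2.4.6 and matplotlib 3.10.9.

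The members and lists were chosen with earlier results of these data known. The text gives in full the 8 tested members with the largest genotype difference, the 4 with the largest difference between 27 and 37 °C and the 3 expressed in both genotypes with the smallest genotype difference. It also names the 4 smallest p per genotype for rhythm and trend, and up to 4 called genes per list and tested comparison. Lists covered TALE cofactors, Polycomb, Trithorax and demethylases, boundary factors, caudal factors, cluster noncoding RNAs and cluster neighbours. The result of 1 listed gene is not reported here. Alternatives changed the pseudocount (0.1 FPKM), the scaling, the filter, the time terms, the libraries left out, the courses fitted together and a block for time label. Time labels were shared between courses, and nothing in the labels says that a shared label marks a shared animal, batch or day.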

Additional observations from a re-analysis of the deposited data

Results flagged for a closer look

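For 2 members the change between 27 and 37 °C differed between genotypes by the interaction term and passed 2-fold. The difference of changes, Bmal1-/- minus WT, was -1.02 for Hoxa4 (limma, adjusted p = 2.13e-29), where the change was 0.73 in WT and -0.29 in Bmal1-/-. For Hoxc5 it was -1.0769 (adjusted p = 3.86e-24), with a change of 1.43 in WT and 0.35 in Bmal1-/-. Each temperature is 1 course per genotype, so a difference between courses cannot be told apart from one of culture.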

How the results depend on the processing

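Over 114 member values and 641 alternative values, 572 kept their direction and their side of the threshold, 54 lost the call, 14 gained one and 1 reversed. The genotype count in the temperature courses was 10 under every alternative run except the pseudocount of 0.1 FPKM, where it was 13. A block for time label as a replicate block gave 10 members for genotype and changed no call among the 57 member values it was run on. With the pseudocount of 0.1 FPKM, 6 members in place of 1 were called between 27 and 37 °C in WT, 4 in place of 2 for the difference between genotypes in that change, 3 in place of 1 between PM and AM in WT and 2 in place of 0 in Bmal1-/-. WT rhythms then numbered 0 in place of 5 and WT trends 9 in place of 18. With median-of-ratios scaling 0 members were called between PM and AM in WT. With each course fitted alone, rhythms numbered 1 in WT and 3 in place of 7 in Bmal1-/-, and WT trends 11. With both CT14 27C libraries kept under their labels, Bmal1-/- rhythms numbered 4 and WT trends 9, and the Hoxd9 trend in WT at 27 °C reversed from -0.11 to 0.12 (limma, adjusted p = 0.47). Courses have 1 library per time point, so no replicate could be left out. Levels of Hoxa9 and Hoxa10 in Bmal1-/- rest on few reads: 1 read was worth about 0.0133 FPKM for Hoxa9 and 0.0167 for Hoxa10 at the median depth. For the scaling and the pseudocount the cause of a changed count was not tested.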

Other observations

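Regulators that maintain Hox states were listed beside the members. Over all genes tested in the temperature courses, 12.9% were called between genotypes. Of 19 Polycomb genes, 18 were tested in the temperature courses. Cbx7, a reader of the repressive histone mark, was lower in Bmal1-/- (-1.92 ± 0.028), by limma with Benjamini-Hochberg adjusted p = 1.89e-97. The Polycomb list had a median difference of 0.0217, against -0.0187 over all genes. All 10 Trithorax and demethylase genes and all 7 boundary factors, CTCF and cohesin among them, were tested and none passed 2-fold, with medians of 0.14 and 0.0985. The caudal genes Cdx1, Cdx2 and Cdx4 were too low to be tested. Cdx1 had course medians of 0.207 to 0.625 FPKM in WT and of 0 in Bmal1-/-. Its lowest WT library was at 0.0451 FPKM and its highest Bmal1-/- library at 0.110. At 27 against 37 °C, Phc2 was higher in WT (1.33 ± 0.0262), and Cbx7 was higher in PM than in AM in WT (1.02 ± 0.0715).

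Among genes next to the clusters, 10 of 16 were tested. Over all genes tested in the temperature courses, 7.0% were called lower in Bmal1-/-. The share of all genes called higher at 27 than at 37 °C was 8.4% in WT and 7.62% in Bmal1-/-, with a median difference of 0.21 in each. Hnrnpa1, beside HoxC, was lower in Bmal1-/- (-1.18 ± 0.0214). At 27 against 37 °C, Calcoco1 (1.02 ± 0.0201), Lnpk (1.01 ± 0.0386) and Skap2 (1.00 ± 0.0296) were higher in WT. In Bmal1-/- the same comparison called Calcoco1 (1.57 ± 0.0201), Hnrnpa1 (1.43 ± 0.0372), Lnpk (1.13 ± 0.0386) and Mtx2 (1.04 ± 0.0276) higher. Short of the 2-fold limit were Mtx2 (0.94 ± 0.0276) and Hnrnpa1 (0.87 ± 0.0372) in WT and Skap2 (0.86 ± 0.0296) in Bmal1-/-. For the difference between genotypes in this change, 0 of the 10 were called. The change of 2 cofactors between 27 and 37 °C differed between genotypes, Pbx4 by 1.40 ± 0.111 and Pbx3 by 1.04 ± 0.0699.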
